A study of Mus musculus with 22 samples.

Results

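Of 114430 windows of 100 bp (tiles) with enough reads on mouse chromosomes 1 to 19, 12937 were highly methylated intron tiles, lying in introns of 5344 protein-coding genes. A tile was counted as a member when its midpoint fell in an intron of a protein-coding gene, outside every exon and outside the window from 1000 bp upstream to 100 bp downstream of any transcription start site (TSS), and when the mean methylation level of the control embryos was at least 80%. The level of a tile is the percentage of reads at its CpGs that kept a cytosine after bisulfite treatment. Reads of a tile are summed over its CpGs, so 1 read that crosses several CpGs is counted at each. A tile needed at least 2 CpGs, each read at least 10 times on a strand, in at least 5 embryos of each condition. Of the 27866 intron tiles that met these limits, 46.4% reached 80% in controls. Because the control level chose the tiles, control levels and their difference from exposed embryos are given below as descriptions, and the calls of tests made across all tiles are counted beside their share of all tiles without a conclusion about the members.

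The libraries came from forebrains of wild type C57BL/6 mouse embryos at embryonic day 10.5 (E10.5), with 1 embryo for each library. Pregnant females had received 2 subcutaneous injections 2 h apart at E2.5, before implantation, that carried either ethanol at 2.5 g/kg each (EtOH-exposed, n = 16 embryos) or the same volume of saline (control, n = 6 embryos). By the study's methods both sexes were equally represented in each group, the controls came from 3 litters and the exposed embryos from 6, and all were chosen for having no visible malformation. The labels do not tie a library to a sex or litter. The tests across all tiles treat littermates as independent. The assay measures DNA methylation and not expression, so the tissue label was not checked against marker genes.

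In mammals a methyl group on the cytosine of a CpG is placed by the enzymes DNMT3A and DNMT3B and copied to the new strand after each DNA replication by DNMT1. Most CpGs of the body of a gene carry it, while the CpG-rich DNA around the TSS of many genes does not. Most of this methylation is removed in the embryo before implantation and laid down again afterwards, and ethanol was given within that period.

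Within introns, the control level changed with the distance from the TSS. Tiles up to 1 kb from the nearest TSS were members in 2.95% of cases (271 of 9188), and the median control level of all these tiles was 1.09%. The share rose to 44.4% (2130 of 4799) over 1 to 5 kb, to 73.8% (5187 of 7026) over 5 to 20 kb, to 77.2% (4490 of 5816) over 20 to 100 kb and to 82.8% (859 of 1037) beyond 100 kb. The larger steps thus fell within the nearest 20 kb. Intermediate levels, from 20% to under 80%, were found in 2.68% of tiles up to 1 kb and in 11.4% to 17.3% at the other distances.

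Intron rank, counted from the 5′ end of 1 transcript chosen for each tile, followed the same order. In first introns 21.1% of tiles were members (2862 of 13585), against 56.5% in introns of rank 2 (1895 of 3355), 70.2% in those of rank 3 (1448 of 2062), 73.9% in introns 4 to 9 (3703 of 5013) and 78.7% in introns 10 or more (3029 of 3851). In the last introns of genes with several, 69.7% of 1566 tiles were members, beside 70.5% of the 14281 tiles of all later introns. Rank and distance were linked, so both were read together. At up to 1 kb the share was 1.60% in first and 15.97% in later introns, over 1 to 5 kb it was 31.1% and 57.5%, and over 5 to 20 kb it was 66.7% and 76.2%. Over 20 to 100 kb the shares were 71.5% and 78.4%, and beyond 100 kb they were 85.3% and 82.5%, the latter pair resting on only 116 first-intron tiles. The lower share of first introns was thus seen at 4 of the 5 distances. Tiles of 1 gene are not independent of each other, and no test was made of these shares.

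**Figure D1:**
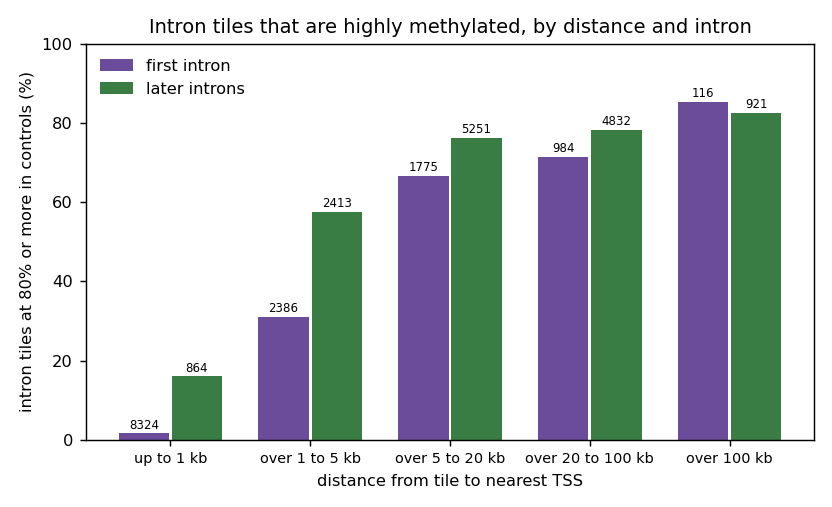
Share of analysed intron tiles (%, y axis) with a mean control level of at least 80%, by distance to the nearest TSS (x axis), in first introns (purple bars) and later introns (green bars). Numbers above the bars are the analysed tiles. The share goes from 1.60% to 85.3% in first introns and from 15.97% to 82.5% in later introns.

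Among the members themselves the rule bounds the control level from below. The median control level was 92.3%, and it moved from 91.3% at up to 1 kb to 92.9% beyond 100 kb, and from 91.9% in first introns to 92.6% in introns 10 or more. The band from 90% to under 95% held 6384 members (49.3%), the band from 95% upward 2531 (19.6%), and the band from 80% to under 85% 1251 (9.67%). At the threshold, 176 members lay between 80% and 81% with a median of 80.5% in controls and 77.9% in exposed embryos, and 184 intron tiles just below it lay between 79% and 80% with medians of 79.5% and 76.8%. Both sides of the threshold thus had like values, with a median of 3 CpGs in each.

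The members differed from the other intron tiles in sequence and position, of which the rule fixed only a minimum of 2 CpGs and the exclusion of exons and of the window around a TSS. They held a median of 3 CpGs (quartiles 3 and 4), against 6 in the 14929 other analysed intron tiles (quartiles 4 and 10). Their median GC content was 55% against 63%, and their median CpG observed over expected ratio was 0.49 against 0.68. At least 50 of the 100 bases were marked as repeats in 23.4% of members and in 1.69% of the other intron tiles. In members beyond 100 kb from a TSS this share was 48.7%. A CCGG site, at which the enzyme MspI cuts to make the library, was present in 92.3% of members and 92.6% of the others, while 16.5% of members and 32.6% of the others held 2 or more. The median member lay 2534 bp from the nearest exon and 15488 bp from the nearest TSS, in an intron of 13977 bp.

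As examples, the member with the most CpGs and a value in all 22 embryos was taken from each rank class, without use of the difference between conditions. These tiles hold 10 or 11 CpGs, beside a median of 3 over all members, so they are not typical of the members. The sequences are those of the plus strand of the mouse reference (GRCm38, mm10), from the first base of each tile, with CpGs in capitals. The Kcnq3 tile, chr15:66057401-66057500, lay in intron 1 of 14 of a gene for a subunit of the potassium channel that carries the neuronal M current. The Slc22a22 tile, chr15:57423701-57423800, lay in intron 2 of 11 of an organic anion transporter gene. The Usp46 tile, chr5:74032201-74032300, lay in intron 3 of 8 of a deubiquitinase gene. The Plekhm2 tile, chr4:141631401-141631500, lay in intron 9 of 18 of a gene whose protein links lysosomes to kinesin. The Mast1 tile, chr8:84923901-84924000, was placed in intron 11 of 25 of a gene for a microtubule-associated kinase. That intron spans 88 bp, so the tile reaches beyond it. All 5 genes are on the minus strand.
Kcnq3: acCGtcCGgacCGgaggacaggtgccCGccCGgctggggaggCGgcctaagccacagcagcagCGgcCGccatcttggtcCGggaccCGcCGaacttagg
Slc22a22: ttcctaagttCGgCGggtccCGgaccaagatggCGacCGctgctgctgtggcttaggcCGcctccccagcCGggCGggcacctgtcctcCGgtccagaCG
Usp46: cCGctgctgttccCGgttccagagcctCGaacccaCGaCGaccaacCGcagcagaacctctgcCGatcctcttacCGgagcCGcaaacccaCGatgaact
Plekhm2: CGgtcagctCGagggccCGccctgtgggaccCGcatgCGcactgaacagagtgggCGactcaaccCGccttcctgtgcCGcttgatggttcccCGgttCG
Mast1: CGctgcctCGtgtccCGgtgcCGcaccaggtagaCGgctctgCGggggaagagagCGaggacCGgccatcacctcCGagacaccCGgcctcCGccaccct

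The first 2 of these sequences are copies of 1 repeat on opposite strands. Their longest identical run, read on opposite strands, was 59 bases, and all 100 bases of each were marked as repeat in the reference. A run of 25 bases of the Kcnq3 tile, on either strand, was found in 105 members in 85 genes (0.812%), in 10 of the other intron tiles (0.067%) and in 427 of all 114430 tiles (0.373%). The median level of those 105 members was 94.6% in controls and 92.2% in exposed embryos. Reads from near-identical copies can be placed at the wrong copy, so the values of a single copy are uncertain.

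In the Kcnq3 tile the control levels ran from 78.1% over a median of 83.6% to 94.6%, and the exposed levels from 72.5% over 80.9% to 87.8%. The control mean was 84.1% ± 6.11 (SD, n = 6) and the exposed mean 81.2% ± 4.52 (n = 16), and the groups overlapped. The difference of -2.95 points was -0.85 without control 6, whose 94.6% rested on 56 reads, summed over the CpGs of the tile. In the Slc22a22 tile the means were 96.7% ± 1.85 and 95.5% ± 2.41 (SD, n = 6 and 16), with 1 exposed embryo, EtOH-exposed 5, at 87.5%. The groups thus overlapped in both repeat copies. In the Usp46 tile the means were 96.4% ± 1.39 and 96.3% ± 2.20, and in the Plekhm2 tile they were 96.0% ± 1.18 and 96.5% ± 0.958.

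In the Mast1 tile the exposed embryos had the higher mean. Its control levels ran from 75.5% over 85.8% to 91.7% and its exposed levels from 82.8% over 88.4% to 91.8%, with means of 84.0% ± 6.12 and 88.3% ± 2.29 (SD, n = 6 and 16). The higher mean of exposed embryos went with 2 low controls, control 3 at 78.0% and control 6 at 75.5%. The difference of 4.34 points was 3.13 without control 3 and 2.64 without control 6.

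Averaged over the 2203 members with a value in every embryo, each tile counted equally, the controls lay between 90.3% and 92.1%, with a mean of 91.1% ± 0.581 (SD, n = 6). The exposed embryos lay between 85.1% and 91.6%, with a median of 90.4% and a mean of 89.4% ± 2.29 (n = 16), which was 1.71 percentage points below the controls. The 2 groups overlapped, with 8 of 16 exposed embryos below the lowest control and none above the highest. Most of the difference came from 4 embryos, namely EtOH-exposed 5 at 85.1%, EtOH-exposed 6 at 85.6%, EtOH-exposed 4 at 85.7% and EtOH-exposed 14 at 86.8%. The next lowest were EtOH-exposed 2 at 88.9% and EtOH-exposed 8 at 89.6%, and the other 10 lay from 90.2% upward.

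The same 4 libraries stood apart in their relative coverage. They are called libraries of low relative coverage below, since they were not low in total. They held 134901319 to 216223892 CpG calls, beside 68126469 to 132488556 in controls. Their median reads per member were 103 to 157, beside 112 to 345 in controls. The reads on members, relative to those on intron tiles with a control level under 20%, gave a log2 ratio of -3.98 in EtOH-exposed 4, -3.89 in EtOH-exposed 5, -4.08 in EtOH-exposed 6 and -3.95 in EtOH-exposed 14. The controls had ratios from -3.01 to -1.92, and the other 12 exposed libraries from -3.24 to -2.01. Members were thus covered least, relative to unmethylated introns, in the libraries with the lowest mean levels, while control 2 had the lowest ratio of the controls and the highest level of all. Without these 4 libraries the difference between exposed and control embryos was -0.51 percentage points (12 against 6 embryos) instead of -1.71. Libraries also fell into groups by the level left on unmethylated tiles. EtOH-exposed 4, 5 and 6 formed a group of their own, at 2.54%, 2.45% and 2.41%. All other libraries lay from 0.26% to 1.52%, with EtOH-exposed 14 at 0.31%. In the 1 group that held both conditions (control 1, control 2 and EtOH-exposed 8) the difference was -1.96. In a wider group, formed after the data were seen, of all 6 controls and 7 exposed libraries it was -0.31. Neither of these 2 groups held EtOH-exposed 4, 5, 6 or 14. The part of coverage in the lower levels was not tested.

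**Figure D2:**
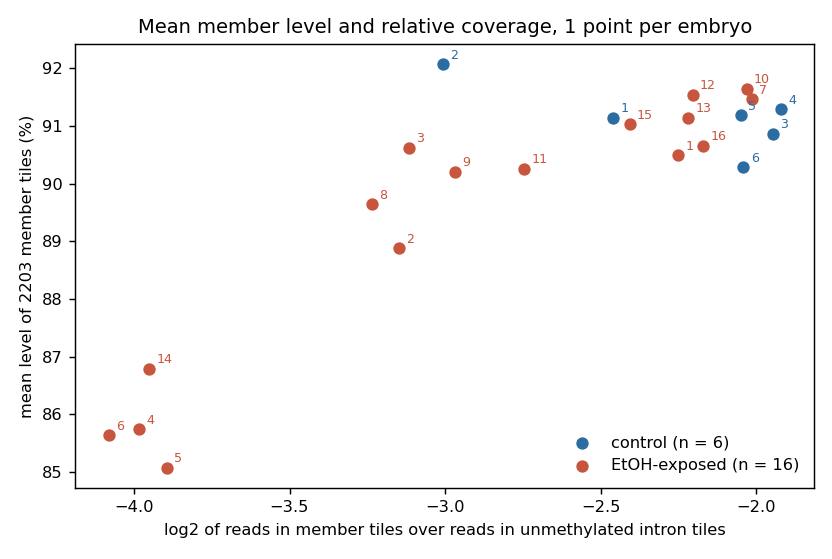
Mean level of the 2203 members (%, y axis) against the log2 ratio of reads in members over reads in intron tiles with a control level under 20% (x axis). Each point is 1 embryo with its replicate number, blue for control and red for EtOH-exposed. EtOH-exposed 4, 5, 6 and 14 sit at ratios of -3.89 or lower and at levels of 85.1% to 86.8%.

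The lower levels were spread unevenly over the tiles. The median member lay between 91.4% and 93.3% in controls and at 88.5%, 87.9%, 88.3% and 88.9% in EtOH-exposed 4, 5, 6 and 14, and the 25th percentile between 86.8% and 89.4% in controls and at 81.1%, 80.3%, 80.7% and 82.8% in these 4. In the controls the 5th percentile of the member levels lay between 78.6% and 82.4%, and in the same 4 exposed embryos it was 66.0%, 64.3%, 64.6% and 70.4%. In these 4 the distance to the controls was larger at the 5th percentile than at the median. The rule holds the control mean of a tile at 80% or more. It thus bounds the low end in controls but not in exposed embryos. Nothing is therefore read from that distance or from the counts below 70% that follow. The 95th percentile lay between 96.7% and 98.7% in controls and between 96.1% and 97.5% in exposed embryos. Members below 70% numbered 0 to 16 of 2203 in a control, 155, 203, 176 and 107 in these 4 exposed embryos, and 2 to 41 in the other 12. In all, 364 of the 2203 members were below 70% in at least 1 exposed embryo, and 281 of these were so only in embryos among the 4. Of the 107 tiles below 70% in EtOH-exposed 14, 41 were so in all 4 of these embryos. In the 6 controls 25 members were below 70% in 1 embryo and none in more.

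**Figure D3:**
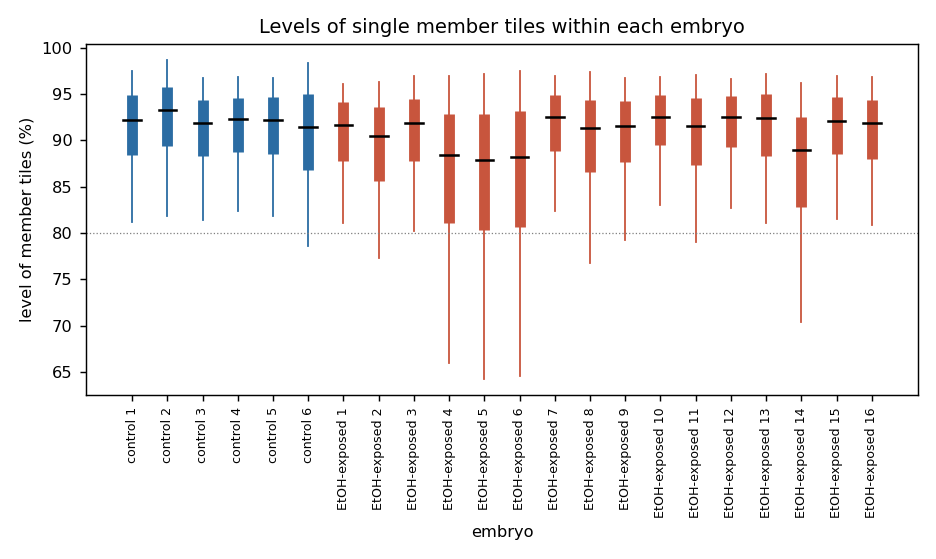
Level of the 2203 members (%, y axis) within each embryo (x axis), blue for control and red for EtOH-exposed. Thin lines run from the 5th to the 95th percentile, thick bars from the 25th to the 75th, black marks are medians, and the dotted line is the 80% threshold on the control mean. The lower end reaches 64.3% in EtOH-exposed 5, while the upper ends stay between 96.1% and 98.7%.

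Within members, the CpGs of CCGG sites were on average lower than their neighbours in the exposed embryos. In the 1430 members with a read CpG of a CCGG site and another read CpG in every embryo, the controls had mean levels of 91.8% ± 0.413 (SD, n = 6) at CCGG sites and 90.6% ± 0.714 at other CpGs. The exposed embryos had 88.2% ± 3.77 and 89.6% ± 1.77 (n = 16), which is -3.58 and -0.96 percentage points from the controls. The gap between the kinds of CpG ran from 0.32 to 1.59 points in controls and from -5.72 to 0.82 in exposed embryos, and 12 of 16 exposed embryos lay below the lowest control. The order of the kinds was therefore turned round in part of the exposed embryos, namely EtOH-exposed 1, 2, 3, 4, 5, 6, 8, 9, 14 and 15. In all 16 exposed embryos the change from the control mean was lower at CCGG sites than at other CpGs.

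In the 4 libraries of low relative coverage, EtOH-exposed 4, 5, 6 and 14, the CCGG sites were at 82.3%, 81.6%, 81.1% and 84.3%. The other CpGs of the same tiles were at 86.9%, 86.1%, 86.8% and 87.5%. In first introns (301 tiles) the differences from the controls were -3.92 points at CCGG sites and -1.18 at other CpGs, and in later introns (1129 tiles) -3.49 and -0.90. Both intron classes thus showed the larger decrease at the sites that the enzyme cuts. The part of library preparation at these sites in the lower levels was not tested.

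**Figure D4:**
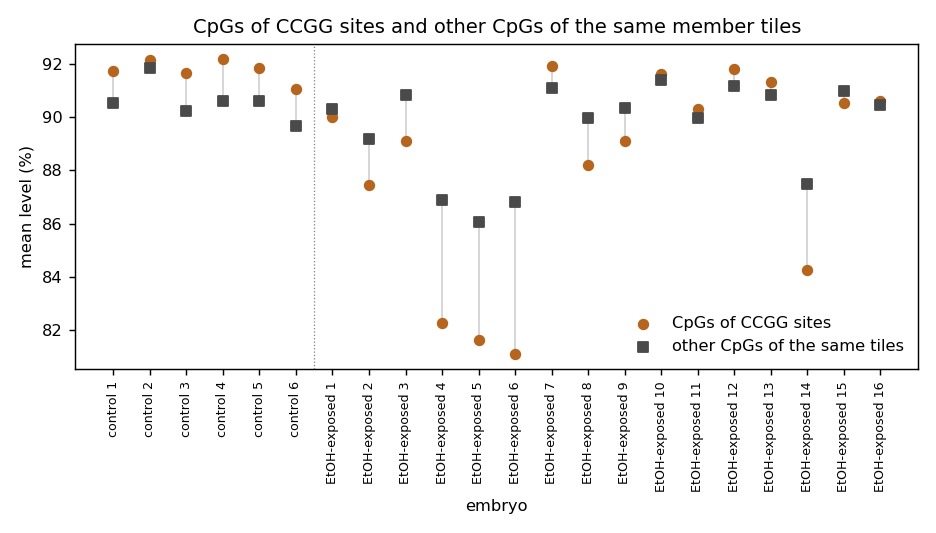
Mean level (%, y axis) of CpGs of CCGG sites (brown circles) and of other CpGs (grey squares) in the same 1430 members, by embryo (x axis), with controls to the left of the dotted line. A grey line joins the values of 1 embryo. CCGG sites lie above the other CpGs in all 6 controls. They lie below them in EtOH-exposed 1, 2, 3, 4, 5, 6, 8, 9, 14 and 15, by the most in 4, 5, 6 and 14.

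The decrease per embryo was seen in each rank class. First introns had a mean level of 90.9% in controls and 89.0% in exposed embryos over 481 tiles, a difference of -1.92 points. The differences were -1.95 in introns of rank 2 (323 tiles), -1.44 in those of rank 3 (239 tiles), -1.59 in introns 4 to 9 (626 tiles) and -1.64 in introns 10 or more (534 tiles). Last introns had -2.03 over 196 tiles. Taken within an embryo, the mean of first introns minus that of later introns ran from -0.57 to -0.14 points in the controls and from -1.86 to -0.30 points in the exposed embryos. The mean gap was -0.33 ± 0.164 (SD, n = 6) against -0.60 ± 0.393 (n = 16), and 5 of the 16 exposed embryos lay outside the range of the controls. Without the 4 libraries of low relative coverage the difference of these gaps was -0.12 instead of -0.27. For introns of rank 2 the difference of the gaps to all other members was -0.28, and -0.08 without the 4 libraries. Introns of rank 3 went the other way, with a mean gap to all other members of 0.73 points in controls and 1.05 in exposed embryos. The difference was 0.31, and 0.12 without the 4 libraries. For introns 4 to 9 this difference was 0.17, and 0.01 without them, and for introns 10 or more it was 0.09 both ways. The rank 3 gap was above every control in 10 of 16 exposed embryos, and in 6 of 12 without the 4 libraries.

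By distance, the class up to 1 kb had the largest difference, -2.65 points over its 57 tiles, from 89.9% ± 0.685 (SD, n = 6) to 87.3% ± 2.73 (n = 16). The other distances gave -1.64 over 1 to 5 kb (392 tiles), -1.68 over 5 to 20 kb (872 tiles), -1.73 over 20 to 100 kb (743 tiles) and -1.62 beyond 100 kb (139 tiles). Taken within an embryo, the class up to 1 kb minus all other members ran from -1.59 over -1.26 to -0.76 points in the controls and from -3.37 over -2.28 to -0.99 in the exposed embryos, with means of -1.25 ± 0.298 (SD, n = 6) and -2.21 ± 0.741 (n = 16). In 12 of 16 exposed embryos this gap was below that of every control. Without the 4 libraries of low relative coverage it was so in 8 of 12. The mean gap then differed from that of the controls by -0.82 instead of -0.96 points. This gap rests on the 57 of 271 members up to 1 kb that had a value in every embryo. Over every member an embryo had, the difference was -2.19 points up to 1 kb (271 tiles). It was -2.04, -2.02 and -2.03 in the next 3 classes and -1.76 beyond 100 kb (859 tiles). The medians over tiles were -1.32 up to 1 kb, then -1.29, -1.29 and -1.30, and -1.12 beyond 100 kb. Beside the next 3 classes, the wider gap up to 1 kb was thus hardly seen over all members of the class. In the other distance classes the same gap was below every control in 0 to 3 of 16 exposed embryos, and over 1 to 5 kb it was above every control in 6 of 16.

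Sequence and position within the intron gave differences of the same order. Tiles of 2 or 3 CpGs changed by -2.02 points (1072 tiles), those of 4 or 5 by -1.35 (826 tiles) and those of 6 or more by -1.62 (305 tiles). Tiles marked as repeat had higher levels in both groups, with 92.7% ± 0.506 in controls (SD, n = 6) and 91.1% ± 2.01 in exposed embryos (n = 16) over 428 tiles, than the 1775 other tiles with 90.8% ± 0.604 and 89.0% ± 2.36. Their differences were -1.57 and -1.75. Tiles within 100 bp of an exon differed by -1.36 (406 tiles), those over 100 to 1000 bp from one by -1.86 (448 tiles) and those over 1000 bp from one by -1.77 (1349 tiles). Exon and intergenic tiles chosen by the same 80% limit gave -1.37 (2023 exon tiles) and -1.70 (2353 intergenic tiles), beside -1.71 in the introns, a value close to that of the intergenic tiles.

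Tile by tile, the difference of the sample means had a median of -1.28 points over the 12937 members, and 75.5% of members were lower in exposed embryos. Over all 114430 tiles the median was -0.10 and 57.0% were lower. In exon and intergenic tiles at 80% or more, 74.3% and 75.6% were lower, so the share of members below their control level was like that of other highly methylated tiles. A tile chosen for a high control level can be lower elsewhere through the choice alone. With each control measured on tiles chosen by the other 5 controls, the difference per embryo was -1.63 points, and with tiles chosen on the mean of all 22 embryos it was -1.38. The spread was larger among exposed embryos, with a median SD of 4.07 points within a tile against 2.52 in controls, and the SD of the exposed group was the larger in 77.9% of members and in 77.5% of all tiles.

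A logistic test that takes embryos of a group as 1 pool of reads called 58 members lower in exposed embryos (adjusted p under 0.01 by Benjamini-Hochberg, together with a change of 10 points or more when embryos are weighted by coverage). Of all tiles, 1.08% were called lower, and of the members 0.448%. The control level that chose the members is a part of this contrast, so nothing is read from these shares. The test called 0 members higher, against 0.0516% of all tiles. By the same test, 545 members (4.21%) and 17.7% of all tiles had a higher weighted level at an unadjusted p under 0.05. A higher call needs a rise of 10 points. Control levels were from 90% to under 95% in 49.3% of members and from 95% upward in 19.6%. The choice of members by control level thus left little room for a higher call, and nothing is read from the 0. The same limit holds for the counts of higher calls given below. In a test that estimates the spread between embryos for each tile (overdispersion, F test), 0 members and 0.0% of all tiles were called, with 715 members (5.53%) and 5.77% of all tiles at an unadjusted p under 0.05. With limma, 0 members and 0.0% of all tiles were called, with 899 members (6.95%) and 4.45% of all tiles at an unadjusted p under 0.05. The calls thus rest on a test that does not count the spread between embryos. The count was 20 without the 4 libraries of low relative coverage, with 17 tiles called in both. It was 102 without EtOH-exposed 1 and 107 without EtOH-exposed 12.

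The 58 called members lay in 52 genes, 18 of them in first introns, and 27 had control levels under 85%. Their median level was 85.5% in controls and 71.2% in exposed embryos, with a median SD of 4.11 and 14.6 points. In all 58 the SD was larger in the exposed group, and in 51 the lowest embryo was among EtOH-exposed 4, 5, 6 and 14. Without these 4 the median difference was -8.53 instead of -14.98 points. By rank, the called members were 0.629% of first-intron members, 0.317% in rank 2, 0.276% in rank 3, 0.405% in introns 4 to 9 and 0.495% in introns 10 or more. Of the members up to 1 kb from a TSS 1.48% were called, which is 4 of 271, beside 1.08% of all tiles.

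The 10 largest decreases among them are described as values only, since the size of the decrease chose them. Adjacent tiles of intron 4 of Car12, a carbonic anhydrase gene, fell into this list. The first, chr9:66748401-66748500, ran from 88.4% to 93.2% in 5 controls and from 24.2% over 76.4% to 100% in 7 exposed embryos, with a weighted difference of -35.2 points. Without the libraries of low relative coverage, 4 exposed embryos remained and the difference of means was -2.56 points. The lowest exposed values of this Car12 tile thus belonged to libraries of low relative coverage, and few embryos were measured. The tile was not poorly read in these libraries. EtOH-exposed 5, at 24.2%, had the most reads of any embryo there, 302. EtOH-exposed 4 and 6 had more reads there than any of the remaining exposed embryos.

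In other tiles the difference was also present in the remaining libraries. In intron 7 of Zpbp, a gene for a sperm protein that binds the egg coat, at chr11:11287901-11288000, 6 controls ran from 86.4% to 93.9% and 15 exposed embryos from 32.4% over 77.7% to 92.8%, and the difference of means was -21.4 points with all libraries and -20.7 without the 4. In intron 2 of Itgbl1, an integrin beta-like gene, at chr14:123723201-123723300, 6 controls ran from 84.3% to 99.2% and 11 exposed embryos from 25.9% over 72.9% to 95.03%, with differences of -24.8 and -23.9. EtOH-exposed 4, 5 and 6 had no value at the Itgbl1 tile, so leaving out the 4 libraries took away 1 embryo there. Both of these tiles were wholly marked as repeat, and the Itgbl1 tile shared a run of 32 bases with the Slc22a22 tile printed above. Exposed embryos at both tiles lay on a wide scale, some within the range of the controls and some under 50%. EtOH-exposed 2, 3, 8 and 9 were under 50% at both tiles, and EtOH-exposed 14 at the Zpbp tile alone. The end of the Itgbl1 tile and the start of the Zpbp tile also hold the same short run of bases. Whether the tiles are parts of 1 kind of repeat was not tested, so they may not be separate examples.

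Intron 1 of Cmip, a gene for an adaptor protein of T cell signalling, held the tile with the most exposed embryos below the controls among these 10. At chr8:117298201-117298300, 5 controls ran from 79.9% over 83.3% to 89.5% and 16 exposed embryos from 21.5% over 51.3% to 82.3%. Its control mean was 83.7% ± 3.58 (SD, n = 5) and its exposed mean 53.6% ± 21.5 (SD, n = 16), with 14 of 16 exposed embryos below the lowest control and all 16 below the control mean. Without the 4 libraries the mean of the remaining 12 exposed embryos was 61.8%, with 10 of 12 below the lowest control. At its CCGG site the means were 84.4% and 43.5%, and at its other CpGs 83.6% and 58.6%. It was called by the logistic test alone. Its sequence, shown because it had the most embryos below the controls among the 10 tiles, holds 3 CpGs (capitals, plus strand of GRCm38).
Cmip: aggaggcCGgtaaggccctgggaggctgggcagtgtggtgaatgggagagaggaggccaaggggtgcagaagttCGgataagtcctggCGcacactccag

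In intron 1 of Sycp3, a gene of the synaptonemal complex that pairs chromosomes in meiosis, a tile 363 bp from the TSS ran from 74.2% over 80.1% to 84.7% in 6 controls and from 27.1% over 61.3% to 80.9% in 16 exposed embryos. Here 13 of 16 exposed embryos lay below the lowest control, and 9 of 12 without the 4 libraries. Its control mean of 80.1% was at the very edge of the rule. A tile of intron 13 of Foxp4, a forkhead transcription factor gene, had the widest controls of the 10, from 57.8% over 83.1% to 93.0%, against 12.2% over 57.1% to 91.1% in the 16 exposed embryos. Without the 4 libraries the difference of means was -15.6 instead of -21.3 points at Sycp3 and -12.9 instead of -22.7 at Foxp4. Sycp3, Foxp4, Car12 and Stard13 each had 2 called tiles, and Trf, the transferrin gene, had 3, with Stard13 and Trf named here after their values were seen.
Sycp3: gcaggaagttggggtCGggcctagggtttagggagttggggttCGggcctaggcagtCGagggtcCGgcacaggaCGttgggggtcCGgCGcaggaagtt
Foxp4: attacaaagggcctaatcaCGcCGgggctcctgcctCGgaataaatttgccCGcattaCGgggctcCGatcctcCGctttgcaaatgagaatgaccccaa
The Sycp3 tile is chr10:88459901-88460000 and the Foxp4 tile chr17:47872501-47872600, both on the plus strand of GRCm38 as printed, with CpGs in capitals. They are shown because, with 7 CpGs each, they were the most CpG-rich of these 10 tiles outside repeats.

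The remaining 3 were single tiles of Atp10a (intron 1, chr7:58730301-58730400), Itgae (intron 16, chr11:73120401-73120500) and Zmynd8 (intron 5, chr2:165844001-165844100). Atp10a, a phospholipid flippase gene, went from a mean of 84.4% ± 8.95 (SD, n = 5) to 61.0% ± 21.1 (n = 15). Itgae, the integrin alpha chain of lymphocytes in epithelia, went from 89.6% ± 1.88 (SD, n = 6) to 76.8% ± 17.0 (n = 14). Zmynd8, a gene for a chromatin reader, went from 93.3% ± 5.80 (SD, n = 5) to 81.9% ± 14.5 (n = 14). At Zmynd8 the CCGG sites had means of 91.6% and 74.0%, while its other CpG had 95.4% and 96.8%, so the decrease of this tile was at the CCGG sites. Without the 4 libraries of low relative coverage the difference of means was -12.6 instead of -23.4 points at Atp10a. It was -4.75 instead of -12.9 at Itgae and -6.88 instead of -11.4 at Zmynd8. At Itgae, EtOH-exposed 4, 5 and 6 had 244, 207 and 203 reads, beside 49 to 188 in the other embryos.

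**Figure D5:**
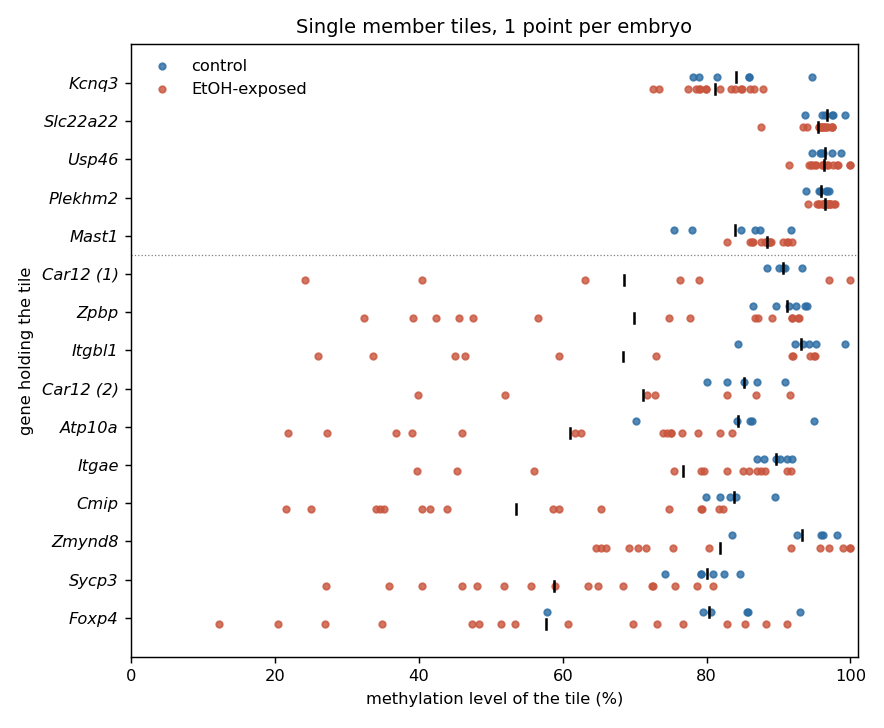
Methylation level (%, x axis) of single member tiles (y axis, by gene), 1 point per embryo, blue for control and red for EtOH-exposed, with the mean as a black mark. Above the dotted line are the 5 tiles chosen for their number of CpGs, whose exposed embryos lie from 72.5% upward, and below it the 10 tiles with the largest called decreases, whose exposed embryos reach from 12.2% to 100%.

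Members were spread over many genes. Of the 5344 genes, 2584 had 1 member, 2641 had 2 to 9 and 119 had 10 or more. Wwox, an oxidoreductase gene whose human counterpart lies at a common fragile site, had 44 members of 56 analysed intron tiles, and Camta1, a calmodulin-binding transcription activator, had 43 of 65. Cdh13, a cadherin without a cytoplasmic part, had 26 of 36 and Gse1 26 of 81. The homeobox genes Cux2 and Zfhx3 had 19 of 34 and 19 of 36. 2900026A02Rik, the Arf regulator gene Agap1 and Cmip had 18 each, of 25, 35 and 25.

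In these genes the median difference of the sample means ran from -0.30 points in 2900026A02Rik to -2.71 in Agap1. Wwox members had a median of 92.3% in controls and 91.2% in exposed embryos, with 33 of 44 lower, and Camta1 members 89.2% and 87.8%, with 35 of 43 lower. Of the members of these genes, 1 tile, that of Cmip, was called lower, beside 0.448% of all members and 1.08% of all tiles. Within Wwox the largest single decrease was -11.2 and the largest increase 2.63 points.

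Genes that matter to the forebrain were counted by 6 lists. Of 171 members in 31 genes of forebrain and neural transcription factors, 3 were called lower, 0 higher and 168 neither, which is 1.75% beside 1.08% of all tiles. The called tiles were 2 of Foxp4 and 1 of Auts2, a gene linked to autism whose 5 members had a median difference of -1.75 points. Zfhx3, Prdm16, Tshz2 and Sox5 had the most members of this list, 19, 14, 14 and 12, with median differences from -0.32 to -1.95 points. These transcription factor genes had none called. Just 38.9% of the list's 440 intron tiles were members.

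Of 275 members in 69 genes of axon guidance and cell adhesion, 0 were called in either direction, beside 0.448% of all members and 1.08% of all tiles called lower. Cdh13, Cdh23, Slit3, a ligand of Robo receptors, and Cntn5, a contactin, had the most, and all 10 intron tiles of Cntn5 were members. Of 75 members in 36 genes of morphogen signalling (Fgf, Tgf, Bmp and Wnt genes), 0 were called, and this list had the lowest share of members, 30% of 250 intron tiles. Its genes with the most were Fgf12 with 9, Tgfbr3, a co-receptor of transforming growth factors, with 7, Bmp7 with 6 and the Wnt co-receptor Lrp5 with 5. All 5 intron tiles of Lrp5 were members.

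Of 128 members in 50 genes of chromatin and DNA methylation, 0 were called. Smarca2, an ATPase of the SWI/SNF remodelling complex, had 12 members of 12 intron tiles and Dnmt1 7 of 7. The Dnmt1 members had a median of 93.2% in controls and 92.2% in exposed embryos. The gene of the enzyme that copies methylation was itself highly methylated in its introns in both groups. Of 332 members in 108 genes of ion channels and neurotransmitter receptors, 1 was called lower, in Grik4, a kainate receptor gene, and 331 were not called. This list had the highest share of members, 61.3% of 542 intron tiles. Of 200 members in 69 genes of regulators of small GTPases, 1 was called lower, in Dock3, and 199 were not called. The called shares of these 2 lists were 0.30% and 0.50%, beside 0.448% of all members and 1.08% of all tiles, and for all 6 lists the median difference over tiles lay between -1.17 and -1.40 points, beside -1.28 for all members. The mean difference per embryo, over the few tiles of a list with a value in every embryo, ran from -1.13 points in chromatin and DNA methylation (27 tiles) to -2.65 in forebrain and neural transcription factors (32 tiles) and -2.82 in morphogen signalling (19 tiles), beside -1.71 for all members.

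Depth bounds these statements. The libraries held 68126469 to 216223892 CpG calls, and a member had a median of 103 to 384 reads in a library. Single libraries had a value in 7254 to 12928 of the 12937 members. For a level of 90% at the median of 222 reads in controls the 95% Wilson interval is 85.5% to 93.4%. At 203 reads in exposed embryos it is 85.3% to 93.5%. These intervals are for counting error only and take every count as independent. A read that crosses several CpGs is counted at each, and reads without molecular identifiers are not independent molecules. The intervals are therefore too narrow. A tile read more or less often than this has a narrower or wider interval.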

How the data were processed

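Rapid reduced representation bisulfite sequencing was done by the authors on MspI-digested forebrain DNA of 6 control and 16 EtOH-exposed embryos. The processing notes of the submitters name Trim Galore 0.3.3, BSMAP 2.90 and the build mm10. The deposited files give for each cytosine of a CpG and strand a read count (coverage) and, in percent, the share of reads with C and with T. Gap filling of the cut ends adds cytosines at CCGG sites, and its effect on the levels there was not tested.

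From these counts, positions with under 10 reads were dropped, both strands were summed into 100 bp tiles, and tiles with 2 or more CpGs in 5 or more embryos per condition were kept (114430). Introns, exons and TSSs came from RefSeq GRCm38. Intron rank came from 1 transcript for each tile, chosen among those with an intron over its midpoint. Curated transcripts were preferred, and the longest was taken where several exist. A member's mean per embryo used tiles with a value in all 22 embryos. Calls used a logistic likelihood ratio test across all tiles (Benjamini-Hochberg adjusted p under 0.01 and a weighted difference of 10 points), with an F test with overdispersion and limma 3.58.1 on log2 ratios (R 4.3.3, offset 0.5) as alternatives. The logistic and overdispersion tests were tested on simulated data, and limma was not. A planned permutation test of single tiles was dropped, since the control level had chosen them. Python 3.11.15, numpy 2.4.6 and scipy 1.17.1 were used.

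Named tiles were, in each rank class, the member with the most CpGs and then the most reads, and the 10 largest decreases called. Increases would have been named too, but none was called. Named genes were the 10 with the most members, of which 1 is not reported here, and, in 6 gene lists, up to 4 with the most members and those called. Tiles of chromosome 18 were left out of the printed sequences. The members, lists and tests were chosen with earlier results of these data known. Reads per CpG, CpGs per tile, the level that makes a member, the weights, the test, left-out embryos and replicate numbers were varied.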

Additional observations from a re-analysis of the deposited data

Results flagged for a closer look

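In 53 groups of 4 to 10 embryos, 3 values stood apart from the rest of their group by Dixon's test, where chance gives about 1 in 20. Control 2 had a gap of 0.318 points between CpGs of CCGG sites and other CpGs of the same members, while the other 5 controls lay between 1.22 and 1.59. Control 6 had a 5th percentile of member levels of 78.6%, against 81.2% to 82.4% in the other controls, and 0.726% of its members were below 70%, against 0% to 0.227%. Control 6 had a median of 112 reads per member, the lowest of the controls, and the part of depth in this was not tested.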

How the results depend on the processing

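The difference of the mean member level (-1.71 points) stayed negative under all 38 alternatives run, within 1 SD of embryos, from -3.58 at CCGG sites to -0.31 in the wider library group, with the values by kind of CpG (-0.96 outside CCGG sites), in the wider library group and without 4 libraries chosen after seeing the data. Leaving out 1 embryo gave -1.88 to -1.42. The first minus later intron difference (-0.27) ran from -0.40 to -0.12 and the differences by distance kept their sign. The labels do not say that a replicate number marks a litter or batch, and deviations of same-numbered embryos correlated at -0.065 to 0.099, so pairing was not assumed. The replicate block used only embryos 1 to 6 of each condition, which kept 3 of the 4 libraries of low relative coverage. It gave -3.40 points for the mean level and -0.40 for first minus later introns. A block of such pairs leaves a difference of means as it is. Both values are thus those of these 12 embryos, with or without the block. With the block 387 members were called lower and 1 higher, against 390 and 3 in the same 12 embryos without it. That comparison of calls was also chosen after seeing the data.

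The count of 58 members called lower depended on most settings. It was 0 with overdispersion, 0 with limma, 219 with unweighted differences and 4 at 20 points or more. It was 155 at 5 reads per CpG (2 higher), 24 at 20 reads and 19 with 3 CpGs or more. With members chosen on the mean of all 22 embryos it was 12. By choices made after seeing the data, it was 20 without the 4 libraries of low relative coverage and 28 with CpGs outside CCGG sites alone. Leaving out 1 embryo gave 40 to 107. The Mast1 difference of 4.34 points ran from 2.64 to 5.87 when 1 embryo was left out. The causes of these changes were not tested. Members with a value in all 22 embryos were 2203 of 12937, which limits the means to the better covered tiles.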
